A study of Drosophila melanogaster with 24 samples.

Results

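Genes of the Drosophila melanogaster Y chromosome, grouped here under the name of fertility genes, are described in adult gonads. Whether each of them is needed for fertility was not tested. The set was chosen by symbol, as 8 genes: kl-2, kl-3, kl-5, ORY, CCY, PRY, Ppr-Y and ARY. Of the 15406 genes counted, 4 carried the identifier of a member: kl-2 (FBgn0001313), ORY (FBgn0046323), Ppr-Y (FBgn0046697) and ARY (FBgn0058064). The identifiers that kl-3, kl-5, CCY and PRY have in a later annotation match no counted gene, so these 4 were not analysed here. All 4 measured genes lie on chromosome Y in that annotation (BDGP6), and their exons overlap no other annotated gene there.

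The Y chromosome of the fruit fly carries few protein-coding genes. They are used almost entirely by the male germ line, and males without a Y chromosome make immotile sperm. In primary spermatocytes several of them, kl-3, kl-5 and ORY among them, are transcribed across very long introns that form visible lampbrush-like loops. kl-2, kl-3 and kl-5 encode heavy chains of axonemal dynein, the motor of the sperm tail. ORY encodes an occludin-related protein and ARY an aldehyde reductase.

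RNA-seq libraries were made from testes and ovaries, with 2 independent dissections per group. TraF males were XY flies on a y1 w* background with UAS-tra[F], which encodes the female form of the splicing regulator TRA, together with tub-Gal4 and tub-Gal80[ts]. Control males were XY flies with tub-Gal4 and tub-Gal80[ts] but no UAS-tra[F], so driver and repressor are shared by both. The tubulin promoter drives Gal4 broadly, and Gal80[ts] blocks it at low temperature. In RNA from whole testes it cannot be seen which cells expressed the transgene. Ovaries came from tra2[ts1]/tra2[ts2] females in a w1118 background and from w1118 females, with egg chambers of stage 10 and older discarded. All flies were raised at 18 °C, shifted at 5 days of age, and dissected after 0, 12 and 24 h. The extraction notes give 30 °C for the testis groups and 29 °C for the ovary groups, and the treatment notes give 29 °C for all. The labels do not state where the Y chromosome of either male stock came from, so the transgene and the rest of each stock cannot be told apart.

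The 24 libraries held 16136939 to 32782474 gene counts. In TraF testes the targeted gene tra had 21.4 ± 2.12 at 0 h, 229 ± 18.1 at 12 h and 262 ± 33.7 CPM at 24 h. The Control values were 10.2 ± 0.894, 6.52 ± 1.29 and 5.91 ± 0.746 CPM in that order of times (SD, n = 2 each). CPM is the count of a gene per 1000000 counts of its library, with library sizes scaled by edgeR. The post-meiotic spermatid list, 10 genes such as the cup genes, summed to between 3916 and 5562 CPM in testes and to at most 1.58 CPM in ovaries, scaled over all 24 libraries. The library Control 12 h replicate 1 stood apart by accessory gland transcripts, with Acp36DE at 1323 CPM. The summed level of 8 such genes was 3.59 to 13.1 CPM in the 6 TraF libraries, against a median of 10.4 and a highest value of 2691 CPM in the 6 Control libraries.

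All 4 measured Y genes were read in every testis library and in no ovary library. Across the 12 testis libraries they gave 25938 counts, and across the 12 ovary libraries 0 counts. A count of 0 allows 3 counts, which is a level of up to 0.0967 to 0.137 CPM in an ovary library. At 0 h the pooled counts in Control testes and w1118 ovaries were 1028 and 0 for kl-2, 348 and 0 for ORY, 438 and 0 for Ppr-Y, and 2414 and 0 for ARY. Against 3 counts over the ovary group, the level was thus at least 306-fold higher in Control testes for kl-2, at least 103-fold for ORY, at least 130-fold for Ppr-Y and at least 719-fold for ARY. Such bounds cover counting error only. XX females have no Y chromosome, and 80.1% of the 12411 genes tested differed between these groups.

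Within testes each gene kept to a limited range. The level of ARY was 38.4 CPM at the lowest, 48.9 CPM at the median and 66.5 CPM at the highest of the 12 testis libraries. kl-2 ran from 17.8 through a median of 23.6 to 29.4 CPM. ORY had a median of 8.99 CPM between 5.19 and 15.6 CPM, and Ppr-Y a median of 8.40 CPM between 6.31 and 10.7 CPM. From the lowest to the highest library, ORY spanned 3.00-fold and the other members 1.66-fold to 1.73-fold.

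Since longer transcripts give more reads, levels of different genes are compared per length of annotated exon, and on that scale ARY was the highest of the 4. ARY (1392 bases of exon) averaged 36.0 CPM per kilobase, Ppr-Y (1710 bases) 4.99, ORY (2745 bases) 3.27 and kl-2 (13386 bases) 1.71. Ppr-Y and ORY do not separate in TraF testes at 0 h, at 4.42 ± 1.03 and 4.75 ± 1.30 CPM per kilobase (SD, n = 2), while ARY lay above both in every group. In Control testes Ppr-Y was at 4.76 ± 0.163 and ORY at 2.37 ± 0.571 CPM per kilobase at 0 h. These lengths come from the later annotation. The gene models used for counting were not used here, and a model that lacked exons would make a per-length level too low.

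**Figure D1:**
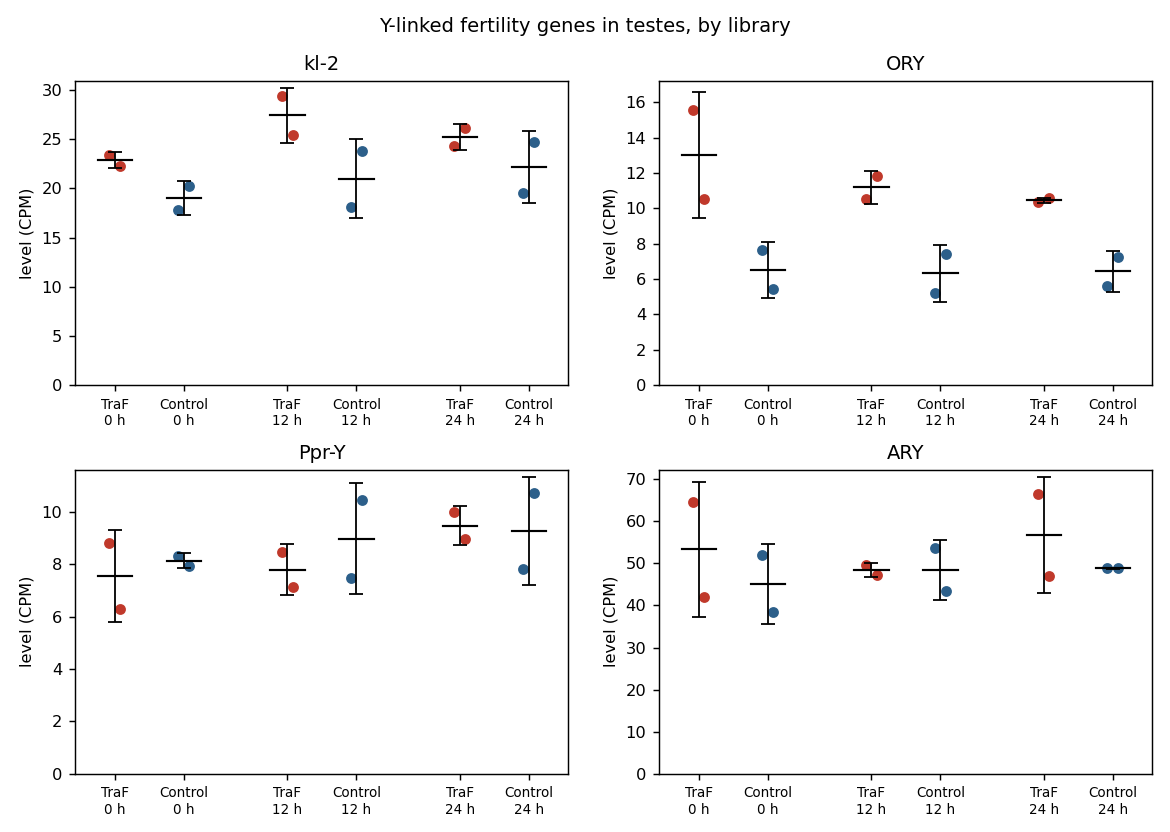
Level in CPM of kl-2, ORY, Ppr-Y and ARY in each testis library (points), with the mean and SD of the 2 libraries of a group (bars), TraF and Control side by side at 0, 12 and 24 h. The 6 TraF libraries of ORY lie between 10.4 and 15.6 CPM, above the Control libraries at 5.19 to 7.62 CPM.

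ORY was the member that differed most between the genotypes, with about 1.8 times as much in TraF as in Control testes. At 0 h the TraF libraries held 15.6 and 10.5 CPM and the Control libraries 7.62 and 5.41 CPM. At 12 h the TraF libraries held 10.5 and 11.8 CPM and the Control libraries 5.19 and 7.43 CPM. The TraF libraries of 24 h held 10.4 and 10.6 CPM, and the Control libraries 5.62 and 7.23 CPM. Every TraF library was thus above every Control library, as for 1.87% of all genes tested. Over all 6 libraries of a genotype ORY averaged 11.6 ± 2.03 CPM in TraF testes and 6.42 ± 1.12 CPM in Control testes (SD, n = 6 each), a ratio of 1.80. In RNA from whole testes, a change in the number of cells of a type and a change in RNA per cell cannot be told apart.

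Tested one time at a time, ORY did not pass. The log2 fold change of TraF over Control at 0 h was 1.00 (SE 0.251), with an adjusted p of 0.12 by edgeR. At 12 h it was 0.83 (SE 0.253), with an adjusted p of 0.221 by edgeR, and at 24 h it was 0.71 (SE 0.252), with an adjusted p of 0.397. All such p-values come from the quasi-likelihood test of edgeR, are adjusted after Benjamini and Hochberg over 12083 genes, and were called under 0.05. DESeq2 called it at 0 h (adjusted p = 0.0295) and at neither later time. The mean of the 3 genotype differences, a comparison added after the data were seen, gave a log2 fold change of 0.84 (SE 0.146, 95% interval 0.52 to 1.16, adjusted p = 0.00562 by edgeR). That call held whichever of the 12 libraries was left out, with values of 0.74 to 0.94 and adjusted p of 0.00257 to 0.0345.

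kl-2 lay higher in TraF testes by a smaller margin that did not pass. The TraF libraries of 0 h held 23.5 and 22.3 CPM, and the Control libraries 17.8 and 20.2 CPM. At 12 h TraF had 29.4 and 25.4 CPM and Control 18.1 and 23.8 CPM. For 24 h the values were 24.3 and 26.2 CPM in TraF and 19.6 and 24.7 CPM in Control. Both TraF libraries lay above both Control libraries at 0 and 12 h, and the genotypes overlapped at 24 h. Of all genes tested 21%, 17.2% and 15.3% lay so at 0, 12 and 24 h. At 12 h the log2 fold change was 0.39 (SE 0.175, unadjusted p = 0.0494, adjusted p = 0.493 by edgeR). For the mean of the 3 times it was 0.28 (SE 0.101, 95% interval 0.06 to 0.51, adjusted p = 0.16 by edgeR). The value at 12 h was 0.20 (adjusted p of 0.745) without Control 12 h replicate 1, the library with accessory gland transcripts, and 0.60 (adjusted p of 0.131) without Control 12 h replicate 2. The mean of the 3 times was 0.22 (adjusted p of 0.262) without replicate 1 and 0.35 (adjusted p of 0.0499) without replicate 2 of that group.

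Ppr-Y and ARY overlapped between the genotypes at each time. Ppr-Y had 8.80 and 6.31 CPM in TraF testes at 0 h, 8.48 and 7.11 CPM at 12 h and 10.0 and 8.95 CPM at 24 h. In Control testes its levels were 8.33 and 7.94 CPM at 0 h, 7.47 and 10.5 CPM at 12 h and 7.82 and 10.7 CPM at 24 h. Its mean log2 fold change over the 3 times was -0.09, with a 95% interval of -0.39 to 0.20. ARY had 64.7 and 42.0 CPM in TraF testes at 0 h, 49.7 and 47.3 CPM at 12 h and 66.5 and 47.0 CPM at 24 h. In Control testes it stood at 51.9 and 38.4 CPM at 0 h, 53.5 and 43.4 CPM at 12 h and 48.9 and 48.8 CPM at 24 h. In every group of both genotypes ARY was higher in replicate 1 than in replicate 2, which the main tests do not model. The 2 highest values of ARY were TraF replicate 1 at 0 h and at 24 h. Its mean log2 fold change was 0.15, with an interval of -0.15 to 0.45, so the data allow a difference of either sign for both genes.

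In the genotype comparisons at single times, 0 of the 4 members were called by edgeR. ORY had an unadjusted p under 0.05 at each time and kl-2 at 12 h. Of all genes tested 1.08%, 1.05% and 1% were called at 0, 12 and 24 h, and 9.91%, 10.1% and 7.47% had an unadjusted p under 0.05. For the mean of the 3 times 1 of 4 members was called, beside 5.36% of all genes called and 2.3% called as higher. The members' median log2 fold change there was 0.22, beside -0.01 over all genes. All 6 TraF libraries lay above all 6 Control libraries for 1 of the 4 members, and for 1.87% of all genes tested.

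**Figure D2:**
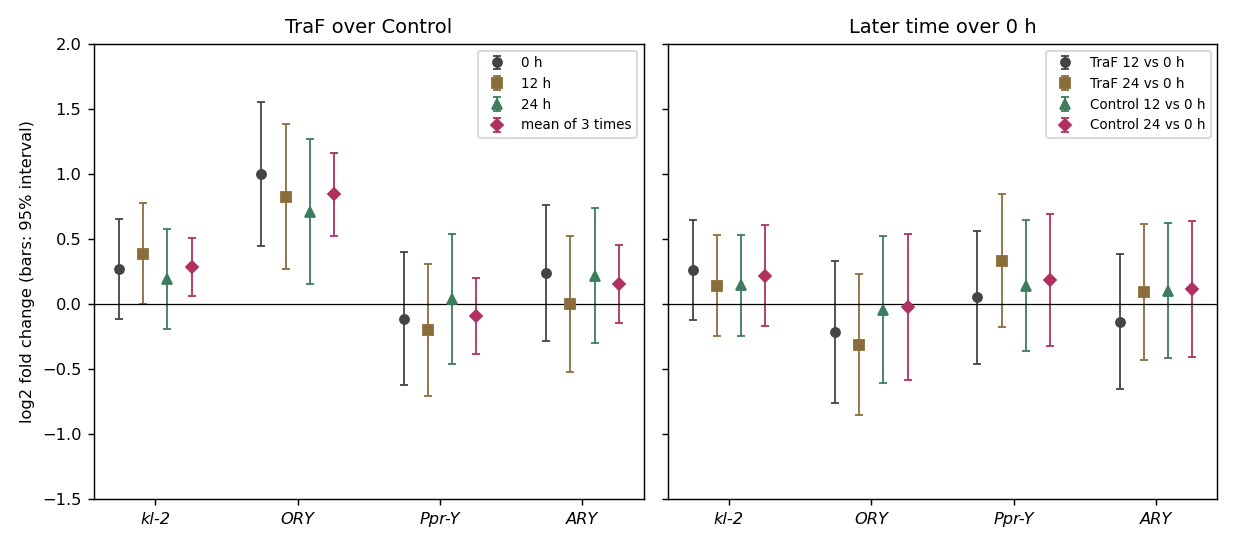
Log2 fold change of kl-2, ORY, Ppr-Y and ARY with 95% intervals from edgeR, for TraF over Control at each time and over the mean of the 3 times (left), and for 12 and 24 h over 0 h in each genotype (right). The intervals of ORY on the left lie above 0, and all 16 intervals on the right include 0.

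Ratios within a library do not depend on how libraries are scaled. The count of ORY per count of kl-2 ran from 0.357 through a median of 0.446 to 0.663 in TraF testes, and from 0.267 through 0.290 to 0.429 in Control testes. Ppr-Y per kl-2 ran the other way, from 0.280 through 0.315 to 0.412 in TraF testes and from 0.392 through 0.423 to 0.469 in Control testes. ARY per kl-2 ran from 1.69 through 1.87 to 2.76 in TraF testes and from 1.82 through 2.24 to 2.95 in Control testes. The genotypes overlapped in all 3 ratios, and the ratios were not tested. At the medians ORY per kl-2 was thus higher in TraF testes, and Ppr-Y and ARY per kl-2 were lower. These directions depend on kl-2 as the reference. Mean CPM in TraF over Control testes was 1.22 for kl-2, 1.80 for ORY, 0.94 for Ppr-Y and 1.11 for ARY.

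**Figure D3:**
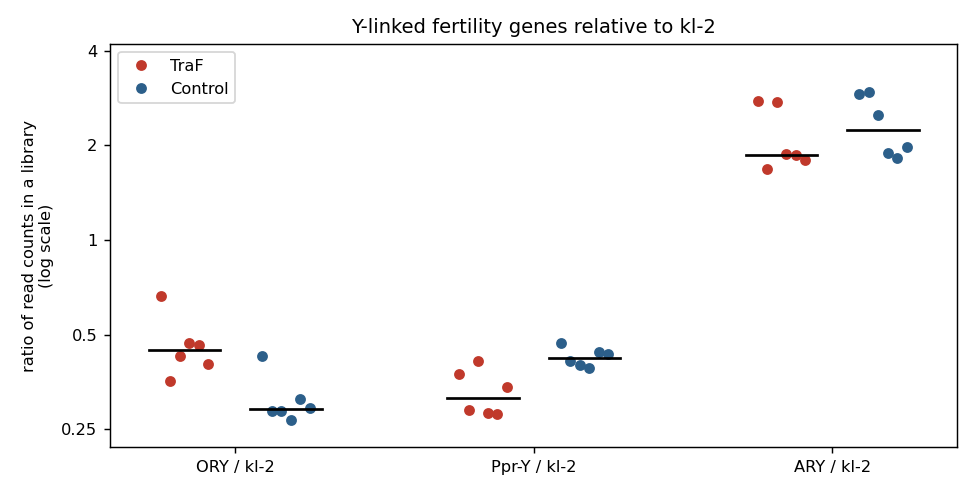
Read counts of ORY, Ppr-Y and ARY divided by those of kl-2 in the same library, on a log axis, for the 6 TraF and 6 Control libraries (points) with the median (line). The median of ORY per kl-2 is 0.446 in TraF and 0.290 in Control testes, and that of Ppr-Y per kl-2 is 0.315 in TraF and 0.423 in Control testes.

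The shift to the restrictive temperature moved none of the 4 genes past the test. In the comparisons of 12 h and 24 h with 0 h, the 16 log2 fold changes of the members in both genotypes ran from -0.31 (ORY in TraF testes at 24 h) to 0.33 (Ppr-Y in TraF testes at 24 h). By edgeR 0 of 16 were called, 0 had an unadjusted p under 0.05, and the adjusted p ran from 0.496 to 0.997. DESeq2 called 0 as well. The 95% intervals reached from -0.85 to 0.84, so changes within these limits cannot be told from none. Among all genes edgeR called 0.679% for TraF at 12 h and 2.52% at 24 h, and 0.306% and 2.69% for Control. An unadjusted p under 0.05 was had by 12.5% and 18% of genes in TraF and by 9.58% and 16.4% in Control testes.

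The change from 0 h in TraF minus that in Control testes, called the switch here, did not pass for any of the 4. At 0 h tra was at 21.4 CPM in TraF and 10.2 CPM in Control testes, and any difference present then is taken out of this value. For kl-2 the 12 h value was 0.12 on the log2 scale, with -0.43 and 0.67 as 95% bounds, and the 24 h value -0.08, with bounds of -0.62 and 0.47. For ORY the values were -0.17 (bounds -0.95 and 0.61) and -0.29 (bounds -1.07 and 0.49). Ppr-Y gave -0.09 and 0.15 and ARY -0.24 and -0.02. By edgeR 0 of 4 members were called at either time and 0 had an unadjusted p under 0.05, and DESeq2 called 0. Over all genes 0.00828% were called at each time, and 2.14% at 12 h and 3.11% at 24 h had an unadjusted p under 0.05. The higher ORY in TraF testes was present at 0 h, and its change after the shift did not differ beyond error from that in Control testes.

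A few other Y-linked rows were called between the genotypes for the mean of the 3 times, in both directions. The calls as lower depended on single libraries, as given below. The annotation places 37 further counted genes on chromosome Y, of which 13 passed the filter on low counts. For the mean of the 3 times, edgeR called 1 of these 13 higher and 2 lower in TraF testes. Beside them, 5.36% of all genes were called and 2.3% called as higher. Of the 13, 5 had a log2 fold change above 0, with a median of -0.17. At single times 0 of 13 were called in any of the genotype, time or switch comparisons. The 13 include genes with near-identical copies, whose reads the authors' counting could have split or dropped.

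CR43176, a Y-linked pseudogene, was higher in TraF testes. The TraF libraries held 119 and 124 CPM at 0 h, 145 and 127 CPM at 12 h and 129 and 134 CPM at 24 h. Control testes gave 92.0 and 71.6 CPM at 0 h, 83.4 and 89.2 CPM at 12 h and 90.6 and 95.6 CPM at 24 h. All 6 TraF libraries lay above all 6 Control libraries, as for 1.87% of all genes tested. For the mean of the 3 times edgeR gave 0.57 on the log2 scale, with an SE of 0.0848 and an adjusted p of 0.00219. Without each library in turn it stayed called, at 0.52 to 0.64. No ovary library held a read of it.

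Pp1-Y1 (FBgn0261399), one of a pair of Y-linked genes of the protein phosphatase 1 family, was nearly unread in TraF testes. Its counts were 1 and 0 in TraF testes at 0 h, 0 and 0 at 12 h, and 3 and 0 at 24 h, against 5 and 40 in Control testes at 0 h, 7 and 80 at 12 h and 11 and 44 at 24 h. Pooled, these were 4 counts in TraF and 187 counts in Control testes. In each pair of Control libraries replicate 2 held the larger count. Its adjusted p for the mean of the 3 times was 0.0176 by edgeR. No fold change is given since TraF testes at 12 h were at 0. The call was lost without each of the 6 TraF libraries and without Control replicate 2 of 0 h or of 24 h, with adjusted p of 0.0582 to 0.0866. Its partner Pp1-Y2 was well read in all testes, at 25.1 to 28.2 CPM in TraF and 18.2 to 27.4 CPM in Control testes, with a mean log2 fold change of 0.17 (95% interval -0.05 to 0.39) that did not pass.

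The Su(Ste) rows belong to a repeat family on the Y chromosome whose transcripts give rise to small RNAs against the X-linked Stellate genes. Of 24 counted, 6 were tested, and all 6 had a mean log2 fold change below 0, where the median of all genes was -0.01. As copies of one family they are not 6 separate observations. Reads were few, at 2 to 14 per testis library for Su(Ste):CR42414 and 7 to 34 for Su(Ste):CR42407. Su(Ste):CR42407 was called as lower. The TraF libraries held 0.422 and 0.461 CPM at 0 h, 0.919 and 1.17 CPM at 12 h and 0.898 and 1.17 CPM at 24 h. In Control testes it stood at 1.14 and 0.948, 1.33 and 1.47, and 1.32 and 1.58 CPM at those times. Over the 3 times edgeR gave -0.71 on the log2 scale, with an SE of 0.184 and an adjusted p of 0.0491. It did not pass with DESeq2 (adjusted p = 0.149), without the filter (0.076), or without any 1 of the 12 libraries (0.0734 to 0.182).

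**Figure D4:**
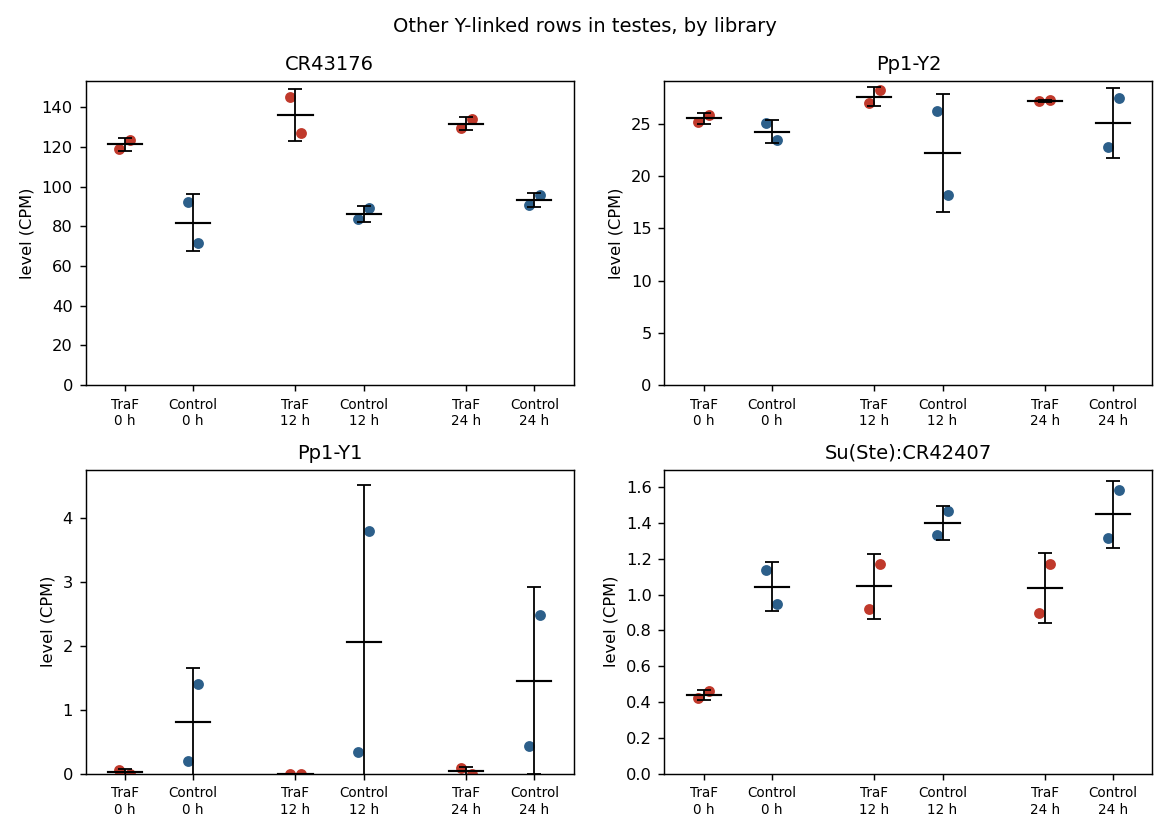
Level in CPM of CR43176, Pp1-Y2, Pp1-Y1 and Su(Ste):CR42407 in each testis library (points), with the mean and SD of the 2 libraries of a group (bars). CR43176 is at 119 to 145 CPM in TraF and 71.6 to 95.6 CPM in Control testes, and Pp1-Y1 is at most 0.0898 CPM in TraF testes.

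kl-2 was compared per length with axonemal dynein heavy chain genes of other chromosomes, of which 6 of 8 listed were counted. The median over the 12 testis libraries was 1.77 CPM per kilobase for kl-2, with a range of 1.33 to 2.20. Dnah3 had a median of 22.7, Dhc36C 13.5, Dhc98D 13.3 and Dhc62B 10.5 CPM per kilobase, and the lowest library of each of these lay above the highest of kl-2. CG3339, at 0.994 to 1.91 CPM per kilobase, overlapped kl-2, and Dhc93AB was below it at no more than 0.179. These lengths again come from the later annotation. A model of kl-2 that lacked exons in the counting would place it too low beside the other genes, and this was not tested. kl-2 varied less between libraries than the 6 others, with 1.66-fold from lowest to highest, against 1.92-fold to 3.32-fold. The 6 had a median log2 fold change of 0.42 for the mean of the 3 times, and edgeR called 0 of 6 in each comparison.

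**Figure D5:**
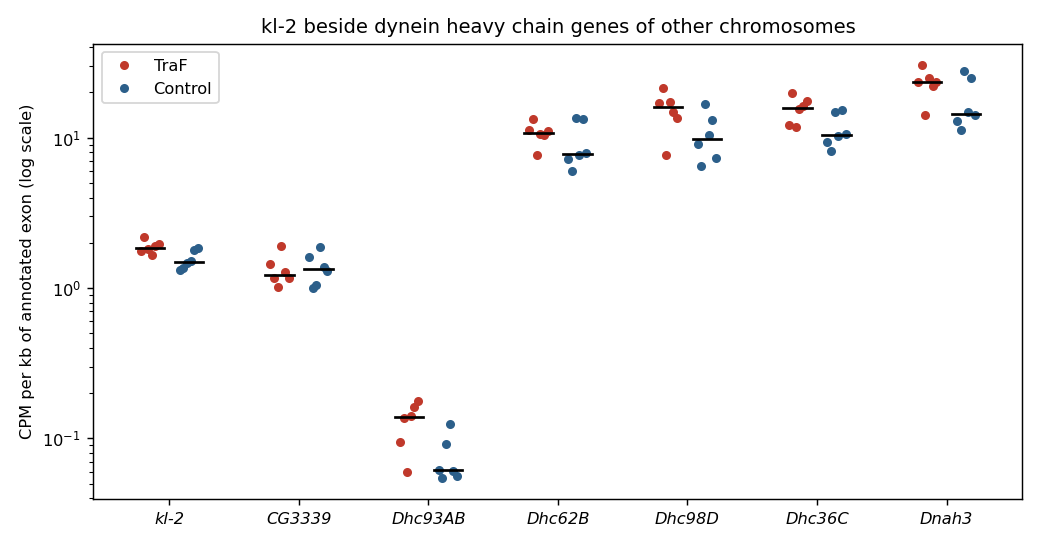
CPM per kilobase of annotated exon, on a log axis, of kl-2 and 6 dynein heavy chain genes of other chromosomes in the 6 TraF and 6 Control testis libraries (points) with the median (line). kl-2 lies at 1.33 to 2.20, near CG3339 and below Dhc62B, Dhc98D, Dhc36C and Dnah3. Lengths are those of the later annotation, not of the gene models used for counting.

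Genes that work with the Y genes in spermatocytes gave few calls. Of 8 genes for proteins of the Y loops or Y transcripts (blanks, Rb97D, bol, heph, loopin-1, nonA, ps and Maca), edgeR called 0 in each comparison. Their median for the mean of the 3 genotype differences was -0.05. Of 8 other sperm axoneme genes, such as betaTub85D, the tubulin of the sperm tail, 0 were called and that median was 0.07. Among 10 tested spermatocyte transcription genes, mia, which encodes a testis form of a TFIID subunit, rose with time. The TraF means were 21.0 ± 0.437 at 0 h, 36.6 ± 1.74 at 12 h and 45.0 ± 0.167 CPM at 24 h, and the Control means 24.3 ± 1.54, 34.9 ± 0.446 and 43.7 ± 0.691 CPM (SD, n = 2 each). From 0 to 24 h its log2 fold change was 1.10 in TraF (adjusted p = 0.0028 by edgeR) and 0.85 in Control testes (adjusted p = 0.00949), and the call in Control testes was lost without either library of Control 0 h (adjusted p of 0.0888 without replicate 1 and 0.0775 without replicate 2) and without replicate 2 of 24 h (0.0837). At 12 h the log2 fold change of mia was 0.80 in TraF testes (adjusted p = 0.0236 by edgeR) and 0.52 in Control testes (adjusted p = 0.13, not called). The 12 h call in TraF testes was lost without any 1 of the 4 libraries compared (adjusted p of 0.124 to 0.224). None of the other 9 was called in any of these comparisons.

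Markers of other cell types moved with the genotype beside ORY, and their part in its difference was not tested. Of 5 tested gut genes 2 were called lower in TraF testes for the mean of the 3 times, Amy-p at -2.13 and Amy-d at -2.36 on the log2 scale. The 8 gut genes summed to 29.9 to 70.2 CPM in TraF testes and 51.0 to 161 CPM in Control testes. LManII, a mannosidase gene of that list, was at 26.4 to 36.6 CPM in TraF and 28.1 to 35.6 CPM in Control testes, and the trypsin and Jonah genes on the list had medians of at most 0.207 CPM in either genotype. Of 7 gonadal soma genes Fas3, a cell adhesion gene of the hub, was called higher (0.63, adjusted p = 0.00475 by edgeR). Of the 7, 4 had a log2 fold change above 0, and the median of the 7 was 0.04. The soma list summed to 193 to 244 CPM in TraF and 164 to 191 CPM in Control testes, and Fas3 had medians of 61.5 CPM in TraF and 42.2 CPM in Control testes. zfh1 had medians of 18.5 CPM in TraF and 19.5 CPM in Control testes, and Wnt2 of 20.6 CPM in TraF and 21.1 CPM in Control testes. In the same order, upd1 had medians of 33.5 and 32.9 CPM and hh of 13.4 and 12.5 CPM. Those of eya were 52.4 and 45.9 CPM, and those of tj 4.47 and 3.32 CPM. The 10 spermatocyte transcription genes tested had 0 calls and a median of -0.06, and the 10 post-meiotic spermatid genes 0 calls and a median of 0.04. For the same mean of the 3 times edgeR called 0 of 5 accessory gland, 0 of 5 muscle, 0 of 3 spermatogonial and 0 of 5 female germline genes.

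Across the 12 testis libraries the members followed each other only loosely. Pearson's r of log2 CPM was 0.65 between kl-2 and ORY, 0.42 between ORY and ARY, 0.32 between kl-2 and Ppr-Y, 0.32 between Ppr-Y and ARY, 0.05 between kl-2 and ARY and 0.01 between ORY and Ppr-Y. These are descriptions over libraries that share genotype and depth. By the highest r with the members' mean standardized log2 CPM, out of 10873 genes with at least 1 CPM, the most similar were drk, an adaptor protein of receptor tyrosine kinase signalling (0.94), Hat1, a histone acetyltransferase (0.93), CG8870 (0.92), CG6441 (0.92), CG8507 (0.92) and FBgn0039553 (0.91). Of 5 other Y-linked rows compared, CR43176 ranked 216 (r = 0.70) and CR41423 ranked 330 (r = 0.66) among these genes. Pp1-Y2 (r = 0.27), CR41506 (r = 0.20) and Su(Ste):CR42407 (r = -0.20) ranked 2787, 3513 and 7905.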

How the data were processed

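Each library has 1 deposited file of unnormalized read counts by gene, made by the authors with TopHat 1.4.1 on build dm3 and HTSeq, per the submitters' processing notes. The HTSeq version, annotation release and strand setting are not given in the sources used here. Totals and tests leave out the 5 summary lines of each file; reads outside genes were 1.07% to 2.48% of all. The line for reads aligned to several places is 0 in every file, so how reads of near-identical copies were treated cannot be seen from it. Depths of 16136939 to 32782474 gene counts per library gave 109 to 346 counts for ORY, the member varying most; a count of 109 has an exact 95% Poisson interval of 89.5 to 131.5. Intervals and floors cover counting error only. The labels call the 2 libraries of a group independent dissections.

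Symbols matched 14732 of 15406 identifiers. Chromosomes, exon lengths and overlaps came from Ensembl's BDGP6 annotation by identifier; its build differs from dm3, so no coordinates are given.

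Tests used R 4.3.3, edgeR 4.0.16 (TMM scaling, filterByExpr, 1 mean per group over the 12 testis libraries, two-sided quasi-likelihood test) and, as an alternative, DESeq2 1.42.0. For ovary against testis all 24 libraries were fitted. The test code was run on simulated data for the 24 h genotype comparison and the 24 h switch only, with changes larger than that of ORY. Smaller changes and the mean of the 3 times were not tried there. Other alternatives were RLE scaling, no filter, a replicate block and leaving out each library. Figures used matplotlib 3.10.9. The members and gene lists were chosen with earlier results of these data known. Members with an unadjusted p under 0.05 have full statistics. Of the genes on other lists that were called, only some have statistics given here.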

Additional observations from a re-analysis of the deposited data

How the results depend on the processing

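The ORY call for the mean of the 3 times held under RLE scaling, no filter, DESeq2, the replicate block and without each library; alternatives were computed for ORY in its 4 genotype comparisons and kl-2 at 12 h and for the mean, not for single values of Ppr-Y and ARY or of the time and switch comparisons. Of these 64 values 62 kept their direction and side of the threshold and none changed sign. The other 2 became called: ORY at 0 h with DESeq2, which gave 1 member called there, and kl-2 for the mean of the 3 times without Control 12 h replicate 2. Counts of genes called moved more. DESeq2 called 216, 282 and 205 genes between TraF and Control testes at 0, 12 and 24 h, 261 and 632 for TraF testes at 12 and 24 h over 0 h, 217 and 542 for Control testes, and 4 and 3 for the switch. The edgeR counts were 131, 127 and 121 between genotypes, 82 and 304 in TraF testes, 37 and 325 in Control testes, and 1 and 1 for the switch. Same-numbered libraries are not stated to share a day or animals, so the main tests did not take the numbers as pairs. Yet 11 of 15 correlations of their deviations exceeded 0.1, with a median of 0.20. The strongest correlation of each of the 6 groups was positive, which follows from the same 15 values, the lowest being -0.0007. The 15 correlations are a hint from the data that libraries of the same number share variation, which the main tests leave out. With a replicate block 195 genes were called between genotypes at 12 h, 163 and 628 in TraF testes at 12 and 24 h, 95 and 579 in Control testes, and 2 for the switch at 24 h. Leaving out 1 library gave 24 to 52 genes between genotypes at 0 h, 19 to 558 at 12 h and 18 to 71 at 24 h, and 372 to 1030 for the mean of the 3 times with 1 to 2 members. It gave 4 to 13 in TraF testes at 12 h and 22 to 36 at 24 h, 1 to 458 and 24 to 102 in Control testes, 1 to 96 and 1 to 1 for the switch, and 9258 to 9555 between Control testes and w1118 ovaries. The cause of these shifts was not tested. With 2 libraries a group, single-time intervals of ORY span about 1 log2 unit, which limits what they can show.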

Other observations

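Of the 41 Y-linked rows, 36 had no read in any of the 12 ovary libraries, and the others together had 31 reads. They are pseudogenes: CR41506 had 12 reads in ovaries and 972 in testes, CR41507 11 in ovaries and 14 in testes, CR42201 4 and 11, CR40801 3 and 140, and CR41509 1 and 39. CR41507 thus had nearly as many reads in the ovary libraries as in the testis libraries. XX females have no Y chromosome, so these ovary reads are not evidence of Y expression in ovaries. Their origin was not tested.

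grk, which encodes the TGF-alpha-like ligand of the oocyte and is on the female germline list, fell in testes of both genotypes after the shift. The TraF means were 7.06 ± 0.156 at 0 h, 2.81 ± 0.160 at 12 h and 2.68 ± 0.191 CPM at 24 h, and the Control means 6.59 ± 0.681, 2.92 ± 0.560 and 2.81 ± 0.137 CPM (SD, n = 2 each). From 0 to 24 h its log2 fold change was -1.40 in TraF (adjusted p = 0.0116 by edgeR) and -1.23 in Control testes (adjusted p = 0.0145). Both calls were lost without each of the libraries they compare.

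Amy-p, an amylase gene of the gut list, rose with time in testes of both genotypes. The TraF means were 1.39 ± 0.513 at 0 h, 12.3 ± 1.32 at 12 h and 24.5 ± 2.65 CPM at 24 h, and the Control means 10.5 ± 3.89, 46.2 ± 4.23 and 74.2 ± 11.01 CPM (SD, n = 2 each). From 0 to 24 h its log2 fold change was 4.11 in TraF (adjusted p = 0.000207 by edgeR) and 2.81 in Control testes (adjusted p = 0.00096).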
